A study of Mus musculus with 54 samples.

Results

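The 9 genes described here, Vegfa, Slc2a1, Pfkfb3, Ldha, Pgk1, Bnip3, Egln3, Ndrg1 and Ankrd37, are known targets of the cellular response to low oxygen. They were taken as a named list by their known function, with earlier results of these data known but no measured value in the rule, and are 9 of the 33126 genes listed in the mouse kidney libraries analysed. Their levels were followed across every bulk group, every 10x group and, within the 10x libraries, across nephron segments gated on marker genes.

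In cells with enough oxygen, prolyl hydroxylases mark the alpha subunits of the hypoxia-inducible factors (HIF) for destruction by the VHL ubiquitin ligase. When oxygen falls the subunits persist, pair with Arnt and switch on genes for glucose uptake, glycolysis, blood vessel growth and mitochondrial turnover. In the kidney the proximal tubule relies on oxidative metabolism, the medulla normally works at low oxygen tension, and podocytes make the Vegfa on which the glomerular endothelium depends. Several of these genes also respond to other stimuli, so their transcripts are not read here as a measure of oxygen.

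The series comprised 54 libraries in 18 groups of 3, with 39 droplet libraries (10x Chromium) and 15 bulk RNA-seq libraries, made to compare ways of dissociating, storing and opening adult whole kidney. In the first experiment kidneys of 19-week-old C57BL/6J males, all littermates of the AFAPIL.1DEL line, were dissociated either at 37 °C with a commercial enzyme kit (warm) or on ice with a cold-active bacterial protease (cold). Each suspension was loaded fresh, after cryopreservation for 6 weeks, or after methanol fixation and 3 months of storage, and the fresh suspensions were also sequenced in bulk. In the second, kidneys of 18-week-old Balb/c male littermates gave fresh cold-dissociated cells, nuclei (3x500g, as defined below) and bulk RNA of the intact organ. In the third, wild type Balb/c females of 15 weeks, former breeders, gave fresh and 2-week cryopreserved cold-dissociated cells, nuclei by 3 isolation methods and bulk RNA of intact kidney and of the cold suspension. All nuclei were isolated from whole kidneys flash-frozen without dissociation, so nuclei and cells also differ in freezing and dissociation. The nuclei were sorted after 3 washes and spins at 500 g (3x500g), sorted after 1 wash and a spin at 2000 g (1x2000g), or cleaned on a sucrose gradient. None of the mice carried an experimental treatment. Strain, sex, age, droplet chemistry (version 2 in both male experiments, version 3 in the female one), bulk library type and batch changed together between the experiments and cannot be told apart. The sample labels do not say which libraries of different protocols shared a mouse. Barcode prefixes do name the suspension behind each C57BL/6J storage aliquot. The main tests were fitted unpaired, so p-values measure the spread between these samples. Paired fits were made only for whole C57BL/6J droplet libraries compared group against group, and are given where they changed a call. Tests within gated segments and tests of a difference between effects had no paired fit.

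The droplet libraries held 782 to 9308 barcodes and 811794 to 35170947 unique molecular identifiers (UMIs) from nuclear-encoded genes, and the bulk libraries 2326998 to 31093949 assigned reads. Levels are given as CPM, the count scaled to a common library total, and fold changes come from a quasi-likelihood fit across all genes with Benjamini-Hochberg adjustment, a gene being called changed at an adjusted p below 0.05. Summed proximal tubule markers (10 genes) stood at 6142 to 6956 CPM in the fresh cold C57BL/6J libraries, but at 27 to 53 CPM in their cold cryopreserved aliquots and 48 to 62 CPM in the warm cryopreserved ones, so the defining cell type of the tissue was close to absent there. The authors kept a gene in a droplet library when at least 10 cells held it, so a gene seen in few cells can be listed at 0 although it had UMIs. This touched 12 values of the 9 genes, those of Egln3 in 5 of 39 libraries, Ankrd37 in 4 and Pfkfb3 in 3, and such a gene is only said to be listed at 0.

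The promoter stretches that carry the core hypoxia response element, ACGTG, or the variant GCGTG were read on both strands within 250 bases before each annotated start of the RefSeq promoter set (GRCm38.p6). Of the 11 promoter entries of 8 members, 9 held ACGTG and 6 held GCGTG, against 16.6% and 28.2% of 32851 mouse promoters. A match is a string of letters only, and binding was not measured. The 7 lines show 1 match for each of 7 genes, with the matched letters in capitals and 10 bases, or fewer, on each side. They are shown so that the element can be read in each gene, as ACGTG in 6 of the lines and as GCGTG in that of Slc2a1. Slc2a1 also has an ACGTG match, at -36 to -32 and partly in its untranslated region, which is not printed. In the lines of Ldha, Pgk1 and Slc2a1 the motif is on the strand opposite to the gene, so the capitals show its reverse complement. Matches of Vegfa lay inside its own exon and are not printed, and Ndrg1 has no entry.
Pfkfb3: cccttctctcCACGTGaaagggggct
Slc2a1: cccacagaacCACGCctctcagagt
Ldha: tgggttcccgCACGTccgctgggct
Bnip3: gcacgcgccgCACGTGccacacgctc
Ankrd37: cccagcagtACGTGcctagctcgg
Egln3: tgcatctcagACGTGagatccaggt
Pgk1: atggaagtagCACGTctcactagtc
Each line reads 5′ to 3′ on the strand of its gene. The Pfkfb3 window (chr2:11502128-11502153, minus strand) is in an intron, with the match at bases -53 to -48 from an alternative start, and holds ACGTG on both strands. That of Slc2a1 (chr4:119108674-119108698, plus strand) holds GCGTG on the opposite strand at -61 to -57. The Ldha window (chr7:46845760-46845784, plus strand, -34 to -30) is intronic, and the Bnip3 window (chr7:138909599-138909624, minus strand, -108 to -103) lies outside genes with ACGTG on both strands. The Ankrd37 window (chr8:46000077-46000100, minus strand, -241 to -237) is in an intron and also within the neighbouring gene Lrp2bp. Those of Egln3 (chr12:54204089-54204113, minus strand, -229 to -225) and Pgk1 (chrX:106186959-106186983, plus strand, -131 to -127) lie outside genes.

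The 9 genes differed widely in abundance. Scaled for transcript length in bulk cold suspensions of C57BL/6J kidney, the mean level in TPM, a count scaled to transcript length and library size, was 1641 for Ndrg1, 734 for Pgk1, 587 for Ldha, 182 for Bnip3, 147 for Vegfa, 52.3 for Slc2a1, 12.5 for Egln3, 11.1 for Pfkfb3 and 1.66 for Ankrd37. Ndrg1, a stress-responsive gene linked to differentiation, was therefore the most abundant, and Ankrd37, an ankyrin repeat protein gene, was close to the limit of detection. Pgk1 and Ldha have processed copies elsewhere in the genome, and how reads shared with these were counted is uncertain.

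Pfkfb3 and Slc2a1 were higher after warm than after cold dissociation in the bulk suspensions. Pfkfb3, whose product makes the main activator of phosphofructokinase, stood at 25.3, 24.1 and 19.7 CPM in the 3 cold suspensions and at 52.7, 59.0 and 62.8 CPM in the 3 warm ones, with no overlap. It rose by 1.31 ± 0.11 on the log2 scale (SE, n = 3 a group; 2.47-fold, adjusted p = 9.57e-06). Slc2a1, the GLUT1 glucose transporter, was at 48.6, 54.8 and 48.3 CPM cold and 80.5, 78.1 and 95.4 CPM warm, again without overlap, a log2 difference of 0.72 ± 0.09 (1.65-fold, adjusted p = 0.000509). Vegfa, the growth factor of blood vessels, was at 174, 181 and 165 CPM cold and 199, 227 and 206 CPM warm. The groups did not overlap, and the difference of 0.26 ± 0.07 just passed (1.19-fold, adjusted p = 0.043), but it was lost when any library except warm replicate 1 was left out (0.21 to 0.31, adjusted p up to 0.132) and in DESeq2 (adjusted p = 0.0550).

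Ldha and Pgk1, which act further down in glycolysis, were not called. Ldha, the lactate dehydrogenase subunit, stood at 512, 523 and 574 CPM in the cold bulk suspensions and 496, 554 and 494 CPM in the warm ones (log2 difference -0.09 ± 0.08, adjusted p = 0.594). Pgk1, phosphoglycerate kinase, was at 451, 450 and 462 CPM cold and 448, 459 and 475 CPM warm (-0.01 ± 0.06, adjusted p = 0.969). Both pairs of groups overlapped. Bnip3, a mitophagy receptor, gave -0.04 ± 0.08 (adjusted p = 0.854), and Egln3, the prolyl hydroxylase PHD3, gave 0.05 ± 0.23 (adjusted p = 0.932). Ndrg1 was at 2824, 2759 and 3379 CPM cold and 2699, 2606 and 2584 CPM warm, a difference of -0.21 ± 0.10 that was not called (adjusted p = 0.234), although the groups did not overlap, but that was called with no filter on low counts (-0.20, adjusted p = 0.0470). Ankrd37, at 0.489 to 0.838 CPM cold and 0.13 to 1.59 CPM warm, was not tested. In all 3 of the 8 members tested were called, all higher, against 8.68% of all genes, and the members' median log2 difference was 0.02 beside -0.01 for all genes. In the same bulk libraries the summed markers of principal cells (7 genes) rose from 229 to 459 CPM cold to 708 to 896 CPM warm, and the study's list of 17 stress genes, chosen on these samples, from 2611 to 3104 CPM to 5075 to 6828 CPM. Their part in the result was not tested, and in bulk RNA fewer cells of a type and less RNA per cell cannot be told apart.

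**Figure D1:**
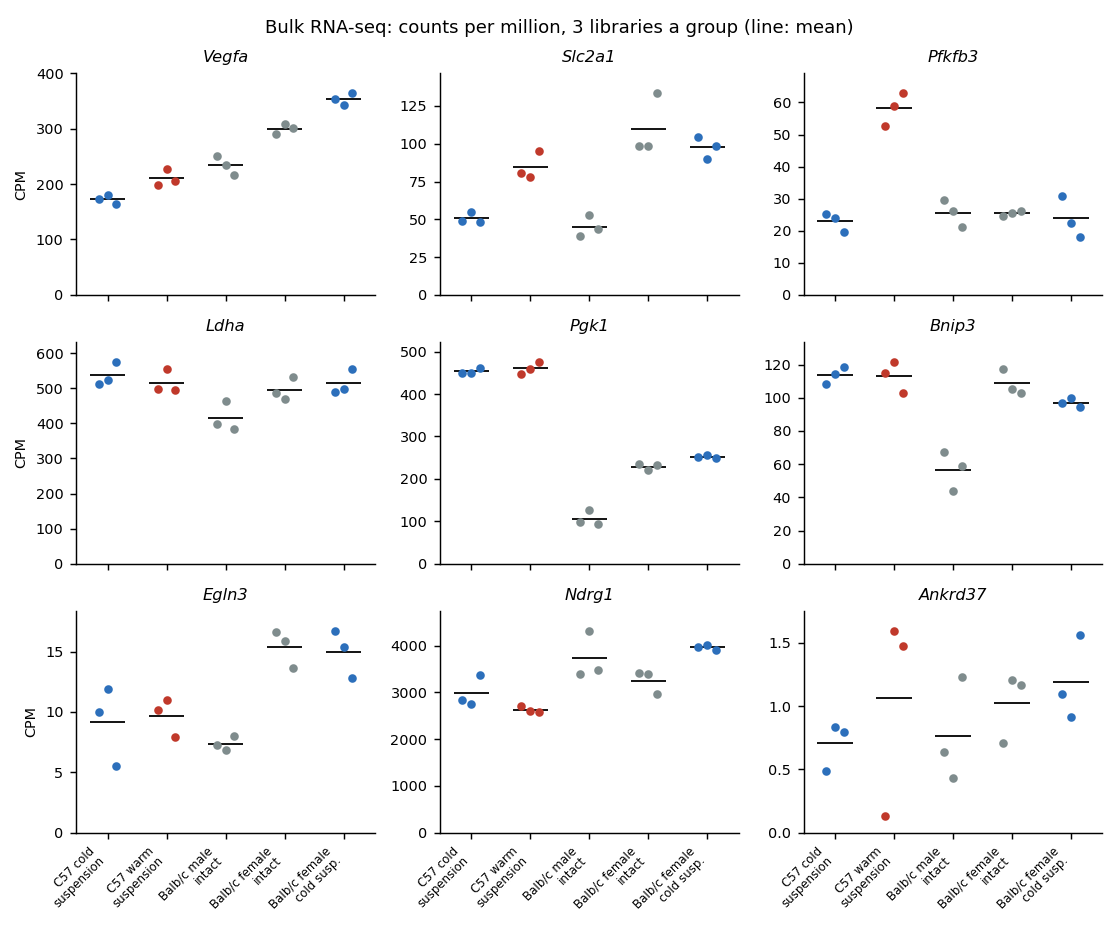
Level of each of the 9 genes (CPM, 1 panel a gene) in every bulk library, with 1 point per library and a line at the mean of each group of 3; cold suspensions are blue, warm red and intact kidney grey. Pfkfb3 and Slc2a1 lie higher in all 3 warm than in all 3 cold C57BL/6J suspensions, while Ldha and Pgk1 overlap there.

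Intact kidney and cold suspension of the Balb/c females differed little for these genes. Vegfa was at 290, 309 and 301 CPM in intact kidney and 354, 342 and 364 CPM in the suspensions, which did not overlap, a log2 difference of -0.22 ± 0.05 (adjusted p = 0.0123) that rose to an adjusted p of 0.0511 without cold suspension replicate 3. Ndrg1 stood at 3411, 3387 and 2956 CPM in intact kidney and 3967, 4018 and 3908 CPM in suspension (-0.27 ± 0.08, adjusted p = 0.0457), a call lost when any library but intact replicate 1 was left out (adjusted p up to 0.119). Pgk1 (-0.13 ± 0.05, adjusted p = 0.102) and Bnip3 (0.18 ± 0.07, adjusted p = 0.0969) did not overlap between the groups but were not called. Slc2a1, Pfkfb3, Ldha, Egln3 and Ankrd37 were not called, with overlapping groups. The 2 of 9 members called, both lower in intact kidney, compare with 20% of all genes. The count was 1 without intact replicate 2, cold replicate 1 or cold replicate 2 and 0 without cold replicate 3. Podocyte markers (9 genes) summed to 805 to 979 CPM in intact kidney and 987 to 1356 CPM in suspension, and markers of the S3 segment to 1255 to 1380 CPM and 357 to 415 CPM. Their part in the result was not tested.

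In the fresh 10x libraries Ldha and Bnip3 were higher and Vegfa was lower after warm than after cold dissociation. The bulk and droplet differences were not tested against each other. Ldha stood at 542, 389 and 400 CPM in the 3 cold libraries and at 724, 654 and 720 CPM in the 3 warm ones, with no overlap (0.80 ± 0.13, 1.75-fold, adjusted p = 0.00502). Bnip3 was at 152, 131 and 138 CPM cold and 173, 160 and 156 CPM warm (0.36 ± 0.10, 1.29-fold, adjusted p = 0.0378). Vegfa fell from 85.6, 131 and 140 CPM to 53.9, 76.5 and 60.6 CPM, again without overlap (-0.74 ± 0.21, 1.67-fold lower, adjusted p = 0.0417). Pfkfb3, which had more than doubled in bulk, was at 7.13, 7.38 and 6.79 CPM cold and 5.49, 7.58 and 4.15 CPM warm, which overlapped (-0.09 ± 0.26, adjusted p = 0.85), and Slc2a1 also overlapped (0.15 ± 0.18, adjusted p = 0.598). Pgk1 (0.41 ± 0.23, adjusted p = 0.252), Ndrg1 (0.32 ± 0.13, adjusted p = 0.135), Egln3 and Ankrd37 were not called.

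The 3 of 9 members called in fresh cells, 2 higher and 1 lower, compare with 15.2% of all genes, and the members' median was 0.15 beside -0.02 for all genes. The call of Bnip3 was lost when any library but cold replicate 1 was left out (0.29 to 0.41, adjusted p up to 0.168). The Vegfa call was lost without warm replicate 1, warm replicate 3, cold replicate 2 or cold replicate 3 (-0.95 to -0.61, adjusted p up to 0.142), and the count was 1 without warm replicate 1, warm replicate 3 or cold replicate 2. The markers of podocytes, the gated class richest in Vegfa, summed to 710 to 1131 CPM in the cold libraries and 72 to 91 CPM in the warm ones, where 2 to 4 of the 9 were at 0; 315 barcodes were gated as podocytes in the cold libraries and 8 in the warm ones. Principal cell markers went the other way from bulk, from 705 to 1174 CPM cold to 425 to 518 CPM warm. The mitochondrial share of all UMIs was 26.1%, 31.0% and 31.7% in the cold and 20.2%, 25.9% and 23.5% in the warm libraries. Their part in the results was not tested.

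Warm and cold dissociation were also set against each other in the stored aliquots. After cryopreservation Pfkfb3 was at 21.5, 16.3 and 15.1 CPM cold and at 42.3, 35.8 and 39.5 CPM warm, with no overlap (1.17 ± 0.16, 2.25-fold, adjusted p = 0.0079), a call lost without warm replicate 3 (adjusted p = 0.0576) and when all groups shared 1 fit (adjusted p = 0.173). Pgk1 was at 22.8, 37.3 and 30.8 CPM cold and 54.5, 59.5 and 52.6 CPM warm (0.86 ± 0.20, 1.81-fold, adjusted p = 0.044). Bnip3 was at 32.5, 31.3 and 31.5 CPM cold and 52.9, 57.6 and 43.1 CPM warm (0.69 ± 0.15, 1.62-fold, adjusted p = 0.0382). Neither gene overlapped between the groups, but the Pgk1 call was lost without any library except cold replicate 2 (adjusted p up to 0.145), and the Bnip3 call without any of the 6 (adjusted p up to 0.118). Ldha, called in fresh cells, gave -0.00 ± 0.12 (adjusted p = 0.998). Slc2a1 overlapped and was not called by edgeR (0.92 ± 0.31, adjusted p = 0.114), but was called by DESeq2 (adjusted p = 0.0155) and in the fit over all groups (adjusted p = 0.0429), which lost Pgk1 (adjusted p = 0.0672). Vegfa, Egln3 and Ndrg1 overlapped and were not called, and Ankrd37, at 8.18 to 9.85 CPM cold, was listed at 0 in warm replicates 1 and 3 and stood at 7.04 CPM in replicate 2. Of 9 members 3 were called, all higher, against 6.6% of all genes; the count was 0 without warm replicate 3 and 1 without cold replicate 1 or 3 or warm replicate 1 or 2. Stress genes summed to 12378 to 15781 CPM in the cold and 28754 to 29904 CPM in the warm cryopreserved libraries, thick ascending limb markers to 228 to 493 CPM and 2002 to 2987 CPM, and podocyte markers to 1256 to 1761 CPM and 324 to 408 CPM. What these add to the results was not tested.

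After methanol only Ldha was called of the 9, against 2.11% of all genes. It was at 583, 511 and 516 CPM cold and 733, 690 and 637 CPM warm, without overlap (0.40 ± 0.09, 1.32-fold, adjusted p = 0.0487), and fell below the threshold without any 1 of the 6 libraries (0.37 to 0.48, adjusted p up to 0.220), with mitochondrial genes kept (adjusted p = 0.0676) and in the fit over all groups (adjusted p = 0.0649). Pgk1 (0.63 ± 0.19, adjusted p = 0.14) and Bnip3 (0.34 ± 0.09, adjusted p = 0.0955) were not called by edgeR, while DESeq2 gave them adjusted p of 0.00370 and 0.0140. Their groups did not overlap, nor did those of Vegfa, at 53.7 to 56.0 CPM cold and 39.5 to 44.7 CPM warm (-0.33 ± 0.12, adjusted p = 0.197). The other 5 members overlapped and were not called. Without warm methanol replicate 2 Bnip3 took the place of Ldha (0.40, adjusted p = 0.046), and without any other single library no member was called.

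The warm effect itself was compared between storage forms, in fits that did not pair the aliquots. It was larger for Pfkfb3 after cryopreservation than in fresh cells, by 1.22 ± 0.31 on the log2 scale (adjusted p = 0.0400), and smaller for Ldha, by -0.84 ± 0.18 (adjusted p = 0.0221). These 2 of 9 compare with 6.01% of all genes. The Pfkfb3 difference kept its sign but passed without only 2 of the 12 libraries (1.05 to 1.63, adjusted p up to 0.0893), and that of Ldha was lost without 4 of 12 (-0.999 to -0.738, adjusted p up to 0.0618). The count was 1 without cold fresh replicate 1, warm cryopreserved replicate 1 or 3, or cold cryopreserved replicate 2 or 3, and 0 without warm fresh replicate 1 or 3 or cold fresh replicate 2 or 3. Between methanol and fresh edgeR called 0 of 9 members, as it called 0% of all genes, with 1 member and 1287 of 12029 genes at an unadjusted p below 0.05.

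Cryopreservation brought the greatest losses among these genes in cells. Ndrg1 fell from 880, 801 and 1136 CPM in the fresh cold C57BL/6J libraries to 118, 150 and 120 CPM in the cryopreserved ones, a log2 difference of -3.06 ± 0.20 (8.34-fold lower, adjusted p = 2.69e-05). Bnip3 fell from 152, 131 and 138 CPM to 32.5, 31.3 and 31.5 CPM (-2.35 ± 0.12, 5.09-fold lower, adjusted p = 1.34e-05). For both genes the groups lay far apart. Pgk1 fell 2.16-fold (-1.11 ± 0.29, adjusted p = 0.0136), Ldha 1.86-fold (-0.89 ± 0.16, adjusted p = 0.00297) and Vegfa 1.84-fold (-0.88 ± 0.21, adjusted p = 0.0102), each without overlap. Pfkfb3 alone was called higher, from 7.13, 7.38 and 6.79 CPM to 21.5, 16.3 and 15.1 CPM (1.09 ± 0.19, 2.13-fold, adjusted p = 0.00242). In the fit over all groups its difference was much the same but was not called (1.08 ± 0.54, adjusted p = 0.115). Ankrd37 was at 3.82, 3.24 and 4.9 CPM fresh and 9.76, 9.85 and 8.18 CPM stored, without overlap but not called (1.00 ± 0.42, adjusted p = 0.0858). Slc2a1 and Egln3 overlapped and were not called.

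The warm-dissociated aliquots gave the same order at the top. Ndrg1 fell from 1133, 1023 and 1035 CPM fresh to 205, 109 and 142 CPM (-3.16 ± 0.20, 8.96-fold lower, adjusted p = 1.96e-05), Bnip3 4.05-fold (-2.02 ± 0.12, adjusted p = 1.65e-05), Ldha 3.25-fold (-1.70 ± 0.07, adjusted p = 3.72e-06) and Pgk1 1.59-fold (-0.67 ± 0.18, adjusted p = 0.0137). Pfkfb3 rose from 5.49, 7.58 and 4.15 CPM to 42.3, 35.8 and 39.5 CPM (2.33 ± 0.23, 5.04-fold, adjusted p = 0.000126). Slc2a1 rose from 17.4, 16.9 and 21.0 CPM to 43.9, 26.9 and 54.4 CPM (0.84 ± 0.24, adjusted p = 0.0182), a call lost without warm fresh replicate 1 or 2 or warm cryopreserved replicate 1 or 3 (adjusted p up to 0.0850). None of these groups overlapped. Egln3 did not overlap either, at 3.82 to 6.71 CPM fresh and 9.57 to 12.8 CPM stored, but was not called (0.67 ± 0.34, adjusted p = 0.131). Vegfa overlapped and was not called, and Ankrd37 was not tested.

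In the Balb/c females, stored for 2 weeks, Ndrg1 fell from 1479, 1680 and 1498 CPM to 547, 592 and 474 CPM (-1.96 ± 0.13, 3.88-fold lower, adjusted p = 6.11e-06) and Bnip3 from 119, 112 and 109 CPM to 45.8, 42.6 and 46.6 CPM (-1.76 ± 0.08, 3.38-fold lower, adjusted p = 2.44e-06). Ldha fell 1.80-fold (adjusted p = 0.000157) and Pgk1 1.50-fold (adjusted p = 0.025), the latter with overlapping groups and lost without fresh replicate 1 or cryopreserved replicate 1 or 2 (adjusted p up to 0.0826). Slc2a1 rose from 41.7, 32.7 and 41.1 CPM to 89.0, 77.0 and 86.7 CPM (0.71 ± 0.10, 1.64-fold, adjusted p = 0.000483), and Pfkfb3 from 8.81, 5.10 and 5.43 CPM to 15.8, 14.6 and 21.4 CPM (0.99 ± 0.23, 1.99-fold, adjusted p = 0.00589). Egln3 was at 4.68 to 6.94 CPM fresh and 7.8 to 11 CPM stored, without overlap but not called (0.41 ± 0.21, adjusted p = 0.132), and Vegfa and Ankrd37 overlapped and were not called, although Vegfa was in the fit over all groups (-0.36, adjusted p = 0.0369). The losses of Ndrg1 and Bnip3 were smaller than in cold C57BL/6J cells, by 1.096 ± 0.23 (adjusted p = 0.00506) and 0.58 ± 0.14 (adjusted p = 0.00883), 2 of 9 members against 19.8% of all genes. Strain, sex, storage time, chemistry and spin speed differ between these experiments and cannot be told apart.

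Cryopreservation moved a large share of all genes, and the members' counts are not far above that background. Of the 9 members 6 were called in cold C57BL/6J cells, 1 higher and 5 lower, against 50.5% of all genes; 6 of 8 in warm cells, 2 higher and 4 lower, against 59.7%; and 6 of 9 in Balb/c cells, 2 higher and 4 lower, against 57.8%. The members' median log2 difference was -0.88, -0.42 and -0.38, beside -0.16, -0.16 and -0.00 for all genes. Proximal tubule markers moved with these losses, in C57BL/6J by the values given at the start and in Balb/c from 5137 to 6465 CPM fresh to 833 to 1701 CPM stored. Principal cell markers went from 1298 to 2404 CPM to 4076 to 5618 CPM in Balb/c, but overlapped in cold C57BL/6J cells, at 705 to 1174 CPM fresh and 900 to 2500 CPM stored. In the latter, stress genes went from 3108 to 3632 CPM to 12378 to 15781 CPM, endothelial markers from 635 to 760 CPM to 1932 to 2484 CPM and macrophage markers from 805 to 1023 CPM to 2700 to 3864 CPM. Their part in the whole-library results was not tested.

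Methanol fixation moved Pgk1 and Bnip3 up and Vegfa down. In cold C57BL/6J cells Pgk1 rose from 77.2, 41.7 and 55.6 CPM to 88.6, 135 and 147 CPM (1.28 ± 0.25, 2.43-fold, adjusted p = 0.00658) and Bnip3 from 152, 131 and 138 CPM to 220, 210 and 193 CPM (0.73 ± 0.10, 1.66-fold, adjusted p = 0.00152). Vegfa fell from 85.6, 131 and 140 CPM to 53.7, 56.0 and 54.3 CPM (-0.95 ± 0.18, 1.94-fold lower, adjusted p = 0.00549). In these 3 genes the groups did not overlap, whereas Ldha overlapped (0.44 ± 0.14, adjusted p = 0.037) and was lost without any library but cold fresh replicate 1 (adjusted p up to 0.143). Slc2a1 was at 13.6 to 21.9 CPM fresh and 10.4 to 13.4 CPM fixed, without overlap but not called (-0.46 ± 0.20, adjusted p = 0.118), and Pfkfb3, listed at 0 in 1 fixed library, was also apart and not called. Egln3 and Ankrd37 overlapped and were not called. With the aliquots paired to their suspension, which their barcodes allow, Ndrg1 was also called (0.316, adjusted p = 0.00604). The 4 of 9 members called, 3 higher and 1 lower, compare with 28.2% of all genes, with a median of 0.32 beside -0.07. Podocyte markers summed to 710 to 1131 CPM in the fresh and 424 to 567 CPM in the fixed libraries, and hemoglobin genes to 5703 to 17643 CPM and 14365 to 33835 CPM. Their part in the result was not tested.

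In warm cells Pgk1 rose from 60.9, 60.0 and 87.6 CPM to 209, 153 and 211 CPM (1.49 ± 0.17, 2.81-fold, adjusted p = 0.00279) and Bnip3 from 173, 160 and 156 CPM to 278, 232 and 256 CPM (0.70 ± 0.08, 1.62-fold, adjusted p = 0.00282), both without overlap. Vegfa fell short of a call (-0.55 ± 0.17, adjusted p = 0.0653) until the aliquots were paired (-0.574, adjusted p = 0.00998). Ndrg1 did not overlap but was not called (-0.13 ± 0.07, adjusted p = 0.296), and Ldha, Slc2a1, Pfkfb3, Egln3 and Ankrd37 overlapped and were not called. The 2 of 9 members called, both higher, compare with 17.3% of all genes. Barcodes gated as S3 made up 2.83% to 3.38% of the fresh and 1.28% to 1.59% of the fixed warm libraries. Endothelium stood at 3.55% to 3.86% and 1.28% to 2.83%. The proximal tubule overlapped, at 42.8% to 52.6% and 47.3% to 49.1%. The part of these shifts in the result was not tested. Without warm methanol replicate 2 the count was 4, since Pfkfb3 and Egln3 were then listed at 0 in every methanol library of the comparison and no fold can be given. The warm, cold, cryopreserved and methanol comparisons share fresh libraries, so their values are set side by side and are not independent.

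**Figure D2:**
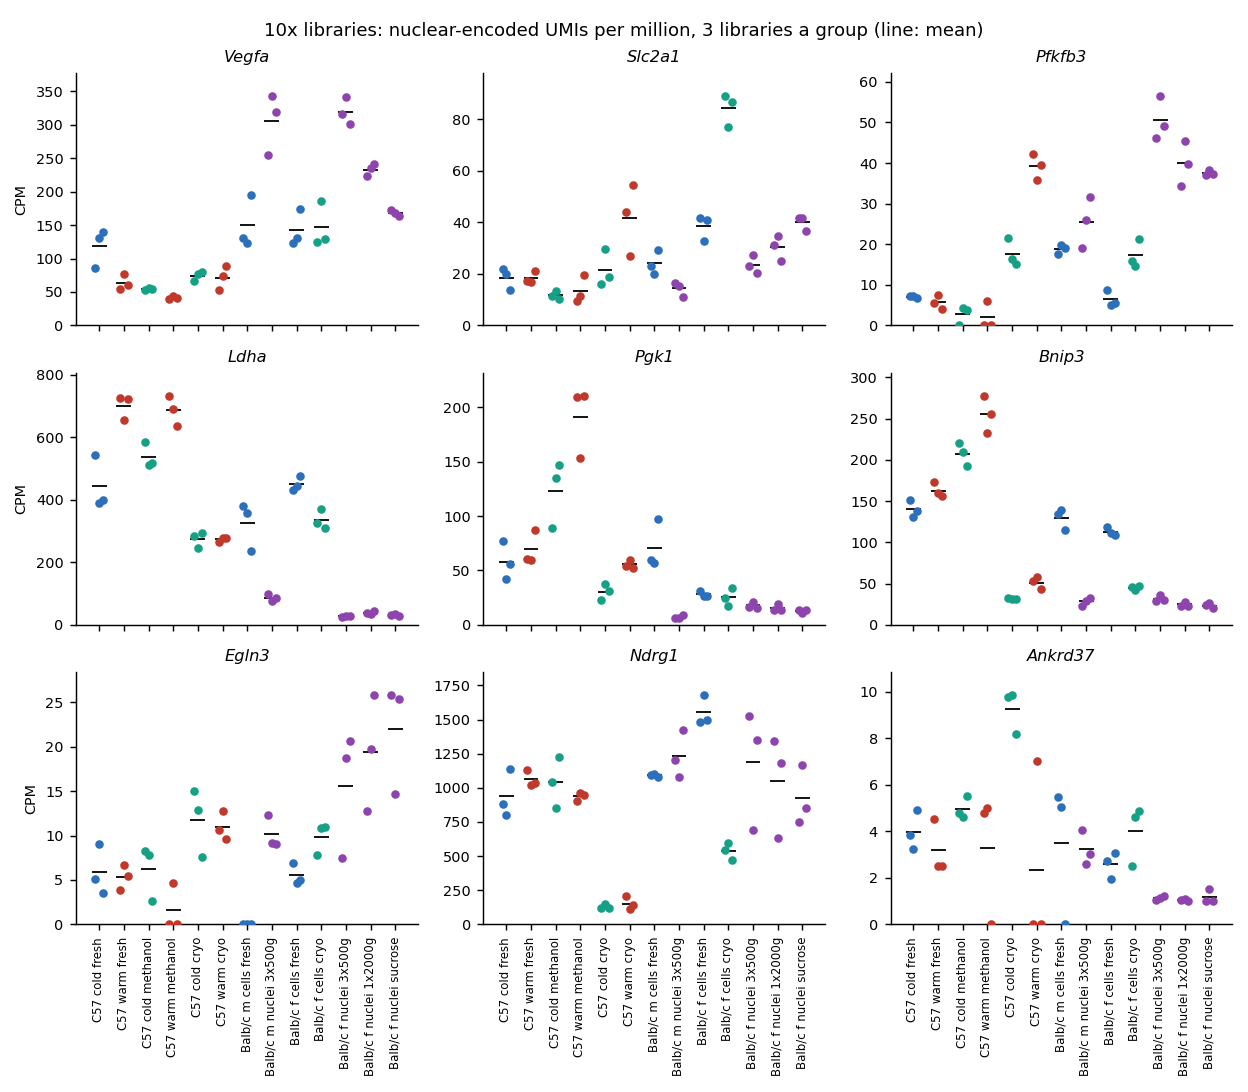
Level of each of the 9 genes (CPM of nuclear-encoded UMIs, 1 panel a gene) in the 39 droplet libraries, with 1 point per library and a line at each group mean; fresh cold cells are blue, warm cells red, stored cold cells green and nuclei purple. Ndrg1 and Bnip3 are lower in every cryopreserved library than in every fresh one of the same experiment, and Ldha is lower in all nuclei than in all cells.

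Nuclei held less Ldha, Pgk1, Bnip3 and Slc2a1 and more Vegfa than cells in both experiments. In the females, 3x500g nuclei had 24.6, 27.3 and 29.1 CPM of Ldha against 430, 443 and 474 CPM in fresh cells (-4.50 ± 0.11, 22.6-fold lower, adjusted p = 4.43e-09). Bnip3 was at 29.1, 35.9 and 30.6 CPM in nuclei and 119, 112 and 109 CPM in cells (-2.28 ± 0.09, 4.84-fold lower, adjusted p = 3.42e-08). Vegfa was at 315, 341 and 300 CPM in nuclei and 123, 130 and 175 CPM in cells (0.73 ± 0.13, 1.65-fold, adjusted p = 0.000588). Each of these genes was separated without overlap. Pfkfb3 rose from 8.81, 5.10 and 5.43 CPM in cells to 46.1, 56.5 and 49.1 CPM in nuclei (2.54 ± 0.17, 5.82-fold, adjusted p = 9.16e-07). Slc2a1 was 2.20-fold lower (adjusted p = 9.84e-06), Pgk1 2.13-fold lower (adjusted p = 1.67e-05) and Ankrd37 3.05-fold lower (adjusted p = 0.00128).

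Egln3 rose 2.07-fold in female nuclei (adjusted p = 0.0233), a call lost without cell replicate 2 or 3 or nuclei replicate 2 or 3 (adjusted p up to 0.0839). Ndrg1 was at 1525, 691 and 1352 CPM in nuclei and 1479, 1680 and 1498 CPM in cells, which overlapped (-0.82 ± 0.29, 1.76-fold lower, adjusted p = 0.0274), and it was not called without cell replicate 2 (adjusted p = 0.0911) or in the fit over all groups (adjusted p = 0.0603). Nuclei replicate 2 was the low one. Of the 9 members 9 were called in the females, 3 higher and 6 lower, against 84.8% of all genes, so the number called says little about these genes. Their median was -1.09 beside 0.10 for all genes. In the females principal cell markers summed to 1298 to 2404 CPM in cells and 294 to 328 CPM in nuclei. Podocyte markers were at 695 to 1144 CPM and 287 to 430 CPM, and connecting tubule markers at 11531 to 16083 CPM and 228 to 436 CPM. The mean share of barcodes gated as principal cells went the other way, from 3.72% of cells to 4.88% of nuclei. A marker sum is therefore not a count of cells. Gated podocytes were at 2.28% and 0.945%, and connecting tubule at 7.55% and 0.764%. Thick ascending limb was at 5.73% and 17.8%, and S3 at 0.611% and 6.16%. The part of these shifts in the results was not tested.

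In the males, nuclei had 99.1, 75.7 and 87.3 CPM of Ldha against 379, 358 and 237 CPM in cells (-2.07 ± 0.21, adjusted p = 4.03e-05) and 6.18, 6.64 and 9.04 CPM of Pgk1 against 59.6, 56.7 and 96.9 CPM (-3.43 ± 0.24, 10.8-fold lower, adjusted p = 5.52e-06). Bnip3 was 5.18-fold lower (adjusted p = 4.16e-06) and Slc2a1 1.85-fold lower (adjusted p = 0.00686). Vegfa was at 254, 343 and 319 CPM in nuclei and 131, 124 and 194 CPM in cells (0.87 ± 0.18, 1.83-fold, adjusted p = 0.0024). All of these were without overlap, while Pfkfb3 (0.25 ± 0.23, adjusted p = 0.339) and Ndrg1 (0.00 ± 0.14, adjusted p = 0.985) were not called. Egln3 was listed at 0 in all 3 male cell libraries and stood at 12.4, 9.12 and 9.04 CPM in nuclei, so no fold is given although it counts among the calls. With 9 UMIs in place of each 0, a setting chosen after seeing the data, its log2 difference was 0.870 ± 0.310 (adjusted p = 0.0301) and Ankrd37 became a seventh call (-0.961 ± 0.297, adjusted p = 0.0163). The 6 of 9 called, 2 higher and 4 lower, compare with 81.3% of all genes, a figure that includes genes set to 0 by the listing minimum. The members' median was -0.41 beside 0.84 for all genes, so Vegfa rose in the males about as much as the median gene. S3 markers summed to 563 to 657 CPM in male cells and 4579 to 5822 CPM in nuclei, connecting tubule markers to 4960 to 7948 CPM and 404 to 710 CPM, principal cell markers to 1911 to 3070 CPM and 413 to 577 CPM, and podocyte markers to 1000 to 1329 CPM and 137 to 198 CPM. The part of these markers was not tested.

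The nuclei effect differed between the sexes' experiments for 5 of 9 members, against 54.6% of all genes, so the count is no result about these genes. The members' median in this contrast was -0.38 beside -0.75 for all genes. Relative to the males it was higher in the females for Pfkfb3 by 2.18 ± 0.32 (adjusted p = 0.000127) and for Pgk1 by 2.22 ± 0.26 (adjusted p = 2.70e-05), and lower for Ldha by -2.54 ± 0.25 (adjusted p = 7.41e-06). For Ndrg1 it was -0.94 ± 0.36 (adjusted p = 0.0419), but -0.50 (adjusted p = 0.254) under DESeq2's scaling, and lost without 11 of the 12 libraries (adjusted p up to 0.591). The fitted value for Egln3 rests on its 0s and cannot be read, and with 9 UMIs set it was 0.051 (adjusted p = 0.951). For Bnip3 the difference was -0.01 ± 0.19 (adjusted p = 0.961), but 0.51 to 0.60 and past the threshold without male nuclei replicate 2 or 3 or female nuclei replicate 1 or 3. Leaving out any nuclei library moved all members of this comparison up by 0.27 to 0.80. Sex, chemistry and age cannot be told apart here.

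Nuclear libraries counted intronic reads, and cells did not. Over 13336 genes the female nuclei-to-cell log2 difference followed gene length with a Spearman correlation across genes of 0.638, and over 13576 genes in the males 0.465, as a description, since genes are not independent replicates. The median difference was -1.12 for female genes shorter than the median gene and 1.15 for longer ones. The gene of Pfkfb3, which rose most in the females, is the longest of the 9 at 82645 bases, and those of Ldha and Ankrd37 are among the shortest, at 14153 and 8806 bases. Not every member lay where other genes of its length did. Vegfa, at 15377 bases, is hardly longer than Ldha. In the length bin nearest both, the quartiles of all genes were -1.02 to 1.55 in males and -1.78 to 0.45 in females. Vegfa lay within these quartiles in males and above them in females, and Ldha lay below them in both. Ndrg1 and Slc2a1 are the next longest after Pfkfb3, at 40323 and 29273 bases. Both were lower in female nuclei (Ndrg1 by -0.82), and Slc2a1 also in male nuclei. Pfkfb3 was not called in the males. The part of gene length in these values was not tested.

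**Figure D3:**
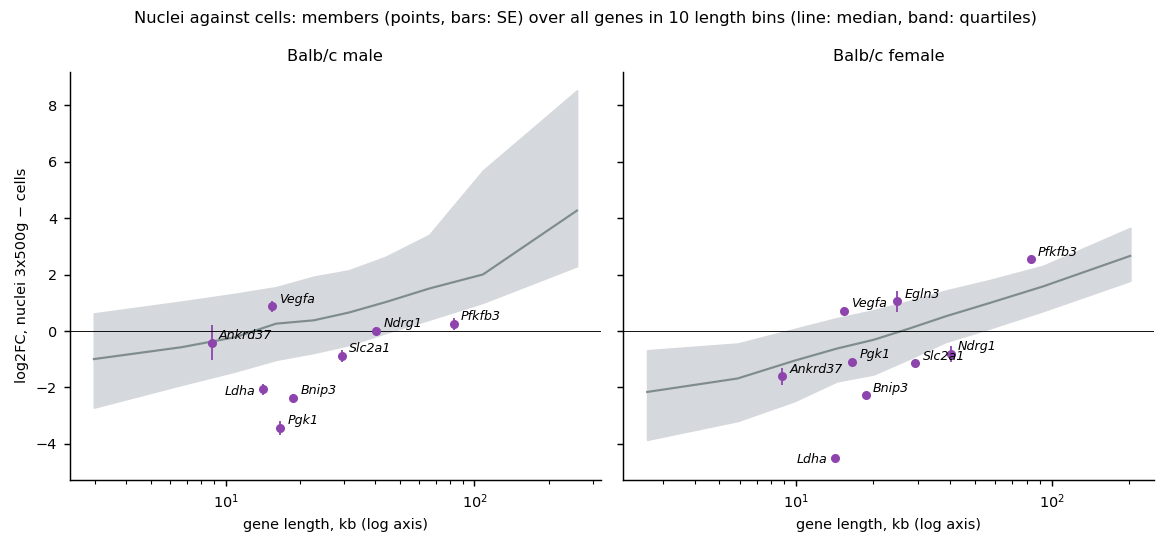
Log2 difference between 3x500g nuclei and fresh cells (y axis) against gene length in kb (log x axis) for the members, drawn over the median and quartiles of all tested genes in 10 length bins, for males and females; Egln3 is not drawn in males because its cells were listed at 0. Longer genes lie higher among all genes, and Ldha, Pgk1 and Bnip3 lie below 0 in both experiments.

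Nuclei of the 3 isolation methods were compared with each other through the 3x500g libraries. Compared with 3x500g, sucrose nuclei had less Vegfa, at 172, 168 and 164 CPM against 315, 341 and 300 CPM (-0.93 ± 0.06, 1.90-fold lower, adjusted p = 0.000192), and more Slc2a1, at 41.6, 41.7 and 36.7 CPM against 23.1, 27.4 and 20.5 CPM (0.76 ± 0.10, 1.69-fold, adjusted p = 0.000995). Neither gene overlapped. Pfkfb3 (-0.43 ± 0.06, adjusted p = 0.00159), Pgk1 (-0.49 ± 0.12, adjusted p = 0.013) and Bnip3 (-0.44 ± 0.10, adjusted p = 0.0106) were lower, so that 5 of 9 were called, 1 higher and 4 lower, against 45.3% of all genes. Ldha did not overlap but missed the threshold (0.27 ± 0.09, adjusted p = 0.0502), and Egln3, Ndrg1 and Ankrd37 were not called. In 1x2000g nuclei Vegfa was at 223, 235 and 241 CPM (-0.47 ± 0.06, adjusted p = 0.00135) and Ldha at 38.1, 34.5 and 43.5 CPM against 24.6, 27.3 and 29.1 CPM (0.51 ± 0.10, adjusted p = 0.00984). Pfkfb3 (-0.36 ± 0.10, adjusted p = 0.0269) and Bnip3 (-0.37 ± 0.09, adjusted p = 0.0195) were also lower, but both calls were lost without 3x500g replicate 2 or 3 or 1x2000g replicate 1 or 3 (adjusted p up to 0.0845 and 0.0751). Slc2a1 was not called (0.35 ± 0.13, adjusted p = 0.0809) except in the fit over all groups (adjusted p = 0.0212) and without 1x2000g replicate 3 (0.47, adjusted p = 0.0327), and Pgk1, Egln3, Ndrg1 and Ankrd37 were not called. The 4 of 9 called, 1 higher and 3 lower, compare with 34.9% of all genes, and the count was 2 without 3x500g replicate 2 or 3 or 1x2000g replicate 1. Both comparisons share the 3x500g libraries. Endothelial markers summed to 393 to 575 CPM in 3x500g, 698 to 953 CPM in 1x2000g and 848 to 872 CPM in sucrose nuclei, and stress genes to 415 to 479 CPM, 595 to 703 CPM and 714 to 900 CPM. Thick ascending limb markers stood at 4258 to 4779 CPM in 3x500g and 3106 to 3681 CPM in sucrose nuclei. Their part in the results was not tested.

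Marker gating placed each gene in the nephron. A check gene kept out of the gate was higher in its class than in the other gated classes in 30 of 30 libraries for podocytes (Synpo), 33 of 33 for proximal tubule (Lrp2), 36 of 36 for principal cells (Scnn1g) and 38 of 39 for endothelium (Cdh5), but in 26 of 35 for the distal convoluted tubule (Klhl3), 33 of 39 for the connecting tubule (Slc8a1) and 19 of 24 for mural cells and fibroblasts (Col3a1). Vegfa was highest in podocytes, at 700, 847 and 1029 CPM in the 3 fresh cold C57BL/6J libraries, from 81, 247 and 247 UMIs. The mean of 859 CPM did not overlap the next class, the proximal tubule S3 segment at 168 CPM, while endothelium, the cell that Vegfa acts on, had 19.2 CPM and macrophages 9.54 CPM. The classes between them overlapped their neighbours in the order. In gated podocytes of the females the mean was 1687 CPM in cells and 1874 CPM in nuclei, again apart from the next class.

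Slc2a1 and Pfkfb3 had their highest mean in principal cells of the collecting duct in all 3 series of fresh cold cells. Slc2a1 was at 192, 195 and 77.3 CPM there in the C57BL/6J libraries, 130, 60.9 and 186 CPM in male Balb/c and 226, 183 and 323 CPM in female Balb/c, beside a mean of 7.45 CPM in the C57BL/6J proximal tubule. Only in the females did principal cells lie apart from the next class, intercalated cells. Pfkfb3 was at 76.8, 76.5 and 66.3 CPM in C57BL/6J principal cells and did not overlap the next class, endothelium, with a mean of 37.6 CPM. In male Balb/c principal cells it was at 65.2, 122 and 135 CPM, and in female ones at 73.2, 55.1 and 43.9 CPM. Principal cells made up 154 of the gated C57BL/6J barcodes.

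Ndrg1 was highest in the proximal tubule, with a mean of 1437 CPM there in C57BL/6J cells, which overlapped S3 at 1206 CPM, and 634 CPM in principal cells. In the females the proximal tubule, at 2449 CPM, stood apart from principal cells at 1190 CPM. Ldha was spread more evenly, at 592, 420 and 429 CPM in the proximal tubule and means of 448 CPM in principal cells, 405 CPM in S3 and 404 CPM in endothelium, which overlapped, with 110 CPM in the distal convoluted tubule. Pgk1 was led by the distal convoluted tubule at a mean of 129 CPM and the connecting tubule at 121 CPM, which overlapped, while the thick ascending limb led in the Balb/c males and the connecting tubule in the females. Bnip3 overlapped between the distal convoluted tubule (mean 182 CPM), proximal tubule (164 CPM) and thick ascending limb (163 CPM). Egln3 was highest in endothelium, at 39.1, 58.5 and 26.3 CPM in C57BL/6J and 59.8, 48.8 and 40.0 CPM in female cells, and was listed at 0 in male cells. In C57BL/6J its endothelial values overlapped those of podocytes (mean 32.0 CPM). Ankrd37 had no class that stood apart from the next.

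**Figure D4:**
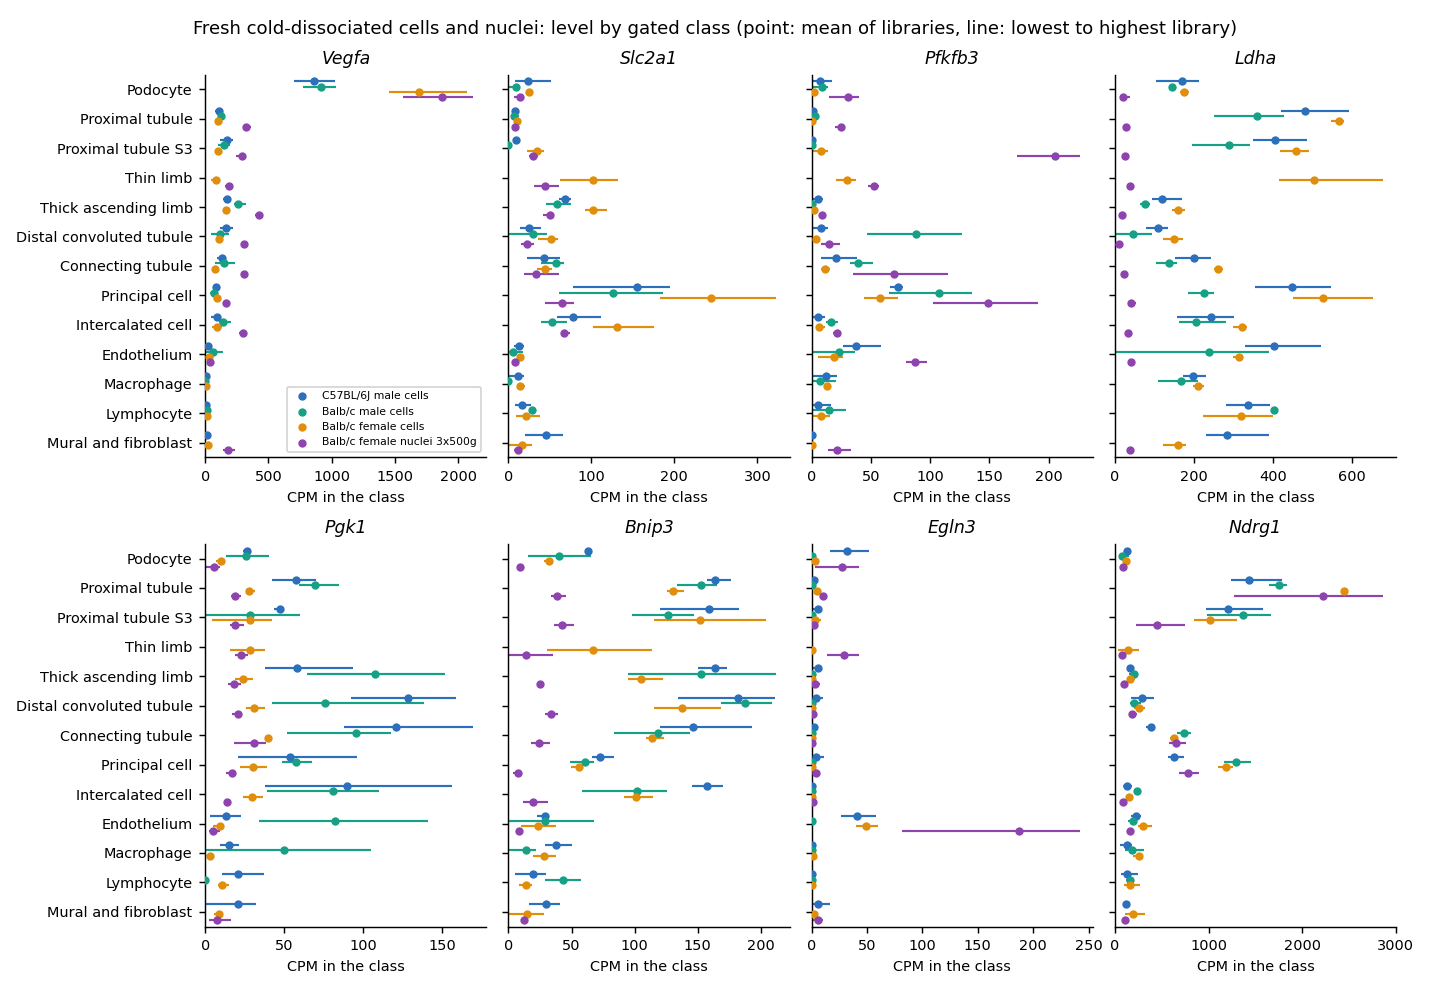
Mean level (CPM) of 8 of the members in up to 13 gated classes, with bars from the lowest to the highest library, for fresh cold cells of C57BL/6J males, Balb/c males and Balb/c females and for female 3x500g nuclei; classes with too few barcodes are not drawn. Vegfa peaks in podocytes in each series, Slc2a1 in principal cells of the 3 cell series and Egln3 in endothelium where it is listed.

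Within classes the count of warm calls was close to the background. Of 41 member and class pairs tested over 10 classes, 2 were called, both Ldha, against 4.29% of all gene and class pairs, so the count is no result about the members. By class, the share of all genes called ran from 0.532% in the distal convoluted tubule to 7.86% in the proximal tubule. In the proximal tubule Ldha rose from 592, 420 and 429 CPM cold to 772, 740 and 773 CPM warm (0.73 ± 0.14, adjusted p = 0.0101), and in S3 by 0.69 ± 0.16 (adjusted p = 0.0229). Its fitted difference was above 0 in all 10 classes, at an unadjusted p below 0.05 in 5. Bnip3, called higher in the whole library, ran from -0.10 to 0.10 over 6 classes, with 0 called by edgeR and 0 at an unadjusted p below 0.05. Vegfa, called lower there, was fitted above 0 in 1 of 7 classes and was at an unadjusted p below 0.05 in 2, with 0 called. The proximal tubule call was lost without cold fresh replicate 2 (adjusted p = 0.0676) and the S3 call without warm replicate 1 or cold replicate 2 or 3 (adjusted p up to 0.139), and the count was 5 without cold replicate 1, 1 without warm replicate 1 or cold replicate 3 and 0 without cold replicate 2. Vegfa in podocytes could not be tested, as 8 podocytes were gated in all warm libraries.

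Inside the classes methanol gave calls for Vegfa, Pgk1, Bnip3, Ldha and Ndrg1. Of 48 pairs over 12 classes 16 were called, 11 higher and 5 lower, against 20.5% of all gene and class pairs. Vegfa fell in 5 of 5 classes tested, by -1.20 ± 0.19 in podocytes (adjusted p = 0.000131), -0.999 ± 0.176 in the proximal tubule (adjusted p = 0.00116), -1.66 ± 0.36 in the connecting tubule (adjusted p = 0.00358), -1.19 ± 0.36 in S3 (adjusted p = 0.0254) and -1.11 ± 0.33 in the thick ascending limb (adjusted p = 0.0214). Pgk1 was fitted above 0 in 8 of 8 and rose in 4, among them the proximal tubule (1.22 ± 0.21, adjusted p = 0.000914) and podocytes (1.69 ± 0.42, adjusted p = 0.00544). Bnip3 rose in endothelium (1.67 ± 0.36, adjusted p = 0.00316), podocytes and proximal tubule, and its fitted values ran from -0.57 to 1.67 over 9 classes. Ldha and Ndrg1 each rose in 2 of 12 classes, with fitted values from -0.03 to 0.91 and from -0.43 to 1.39. The paper found shared tubule and hemoglobin transcripts in most cell types after methanol and proposes that free RNA entered the droplets. The part of free RNA in these class values was not tested, so a rise in a class need not lie in its cells. Slc2a1 was tested in 2 classes and called in neither, and Pfkfb3, Egln3 and Ankrd37 could be tested in none. The S3 and thick ascending limb calls of Vegfa were each lost without 4 of the 6 libraries (adjusted p up to 0.139 and 0.101), among them cold fresh replicate 2, and the count was 6 without that library and 7 without cold methanol replicate 2.

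The loss of Ndrg1 on cryopreservation could be followed in few classes, because 8 barcodes were gated as proximal tubule in the cold cryopreserved C57BL/6J libraries against 5039 in the fresh ones, and 0 against 235 as S3. In the classes left, Ndrg1 differed by -0.08 ± 0.20 in principal cells (adjusted p = 0.915), 0.03 ± 0.24 in the connecting tubule, -0.21 ± 0.24 in endothelium and -1.01 ± 0.37 in podocytes (adjusted p = 0.177). The single call was in macrophages, from a mean of 131 CPM fresh to 11.2 CPM stored (-3.47 ± 0.51, adjusted p = 1.79e-05). So 1 of 27 pairs over 9 classes was called, against 5.13% of all pairs. The count was 3 without cold fresh replicate 2 and 2 without cold fresh replicate 1 or any of the 3 cryopreserved libraries. Ldha, tested in 9 classes, was called in 0 by edgeR, with 0 at an unadjusted p below 0.05 and fitted values of -0.47 to 0.53, and Vegfa in podocytes gave -0.02 ± 0.19. Bnip3 in intercalated cells gave -1.09 ± 0.32 (adjusted p = 0.0605). In the fresh libraries Ndrg1 lay at a like low mean of 114 to 159 CPM in podocytes, thick ascending limb, intercalated cells, macrophages, lymphocytes and mural cells, and in the stored ones at 105 CPM or lower in the same classes. The part of free RNA in these low levels was not tested. The proximal tubule, the class highest in Ndrg1, could not be tested.

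**Figure D5:**
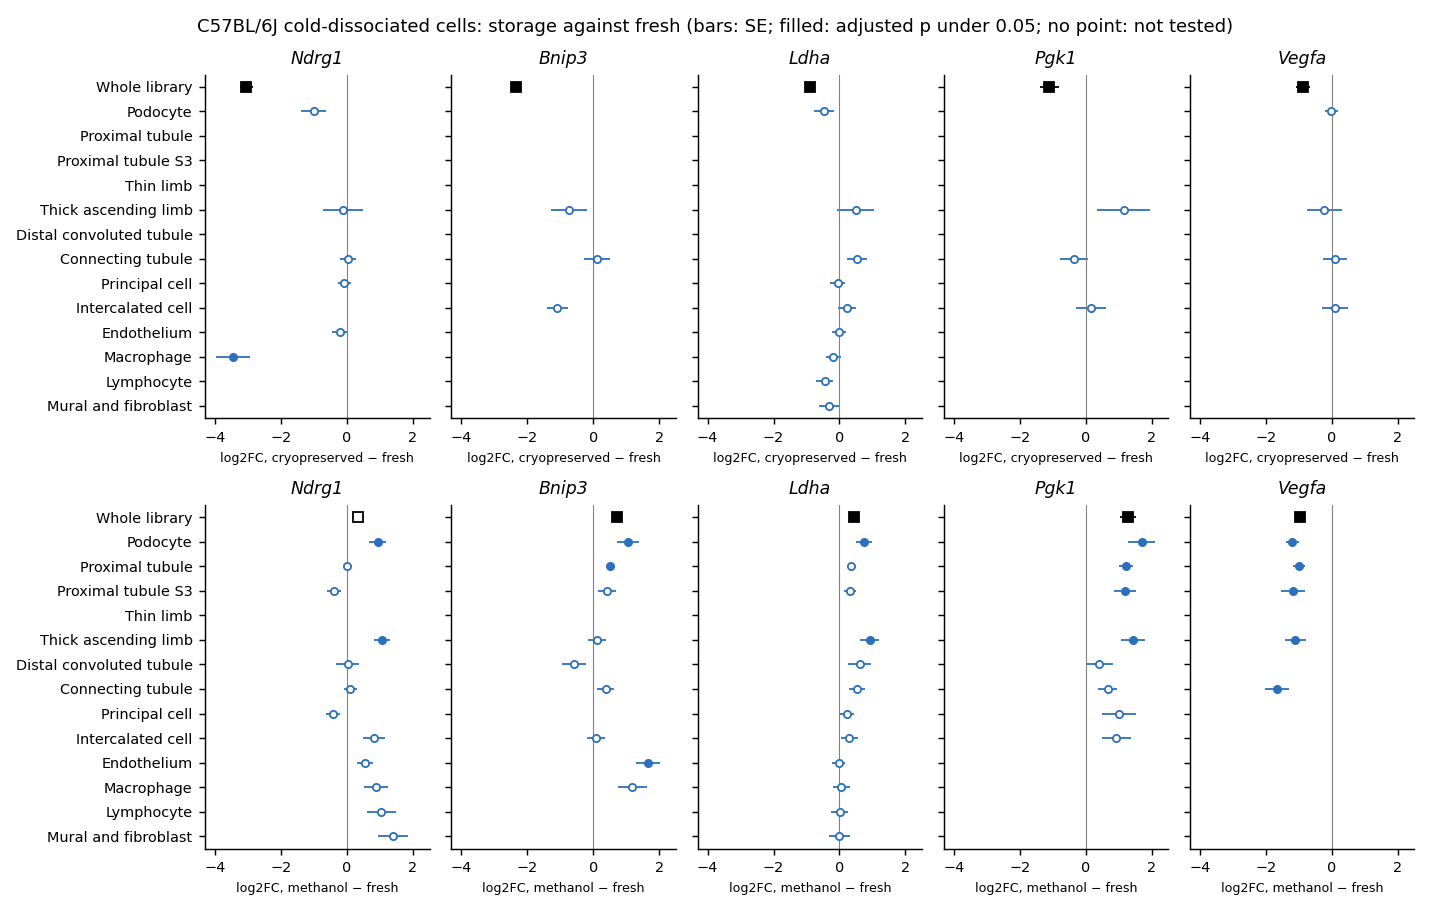
Log2 difference of Ndrg1, Bnip3, Ldha, Pgk1 and Vegfa from fresh to cryopreserved (top row) and from fresh to methanol-fixed (bottom row) cold C57BL/6J cells, in the whole library (black squares) and in gated classes (blue circles); bars are SE, filled symbols passed an adjusted p below 0.05, and classes without a point were not tested. On cryopreservation Ndrg1 is at -3.06 in the whole library, -0.08 in principal cells and -3.47 in macrophages, while on methanol Vegfa lies below 0 throughout.

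In nuclei against cells the class values mostly kept the sign of the whole library. In the females 60 of 65 pairs over 11 classes were called, 18 higher and 42 lower, against 79% of all pairs. Ldha fell in 11 of 11 classes, most in the proximal tubule (-5.06 ± 0.15), Bnip3 in 7 of 7 and Ndrg1 in 11 of 11, from -1.46 in S3 to -0.61 in podocytes, the latter lost under DESeq2's scaling (-0.56, adjusted p = 0.0692). Pfkfb3 rose in 8 of 8, from 1.09 in principal cells to 5.55 ± 0.31 in the proximal tubule. Vegfa rose in 9 of 11, and differed by 0.05 ± 0.19 in podocytes and 0.12 ± 0.30 in endothelium, which were not called. Egln3 rose in endothelium by 1.74 ± 0.32 (adjusted p = 5.91e-05).

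The order of class means of Pfkfb3 differed between female nuclei and cells. In S3 it stood at 174, 217 and 226 CPM in the female nuclei and at 9.72, 0 and 14.2 CPM in the cells, from 3 UMIs in all. In principal cells the female nuclei had 102, 191 and 153 CPM, which overlapped their S3 values. Principal cells kept the highest mean in male nuclei, at 102 CPM beside 56.6 CPM in S3. In the males 25 of 33 pairs over 9 classes were called, 10 higher and 15 lower, against 71.9% of all pairs. The higher ones include Egln3 in 1 class, although male cells listed it at 0, so this call has no reading as a fold. Pfkfb3 was called higher in 2 of 3 classes tested, and the male S3 cells held 0 of its UMIs. There Vegfa rose in 7 of 8 classes and Bnip3 fell in 4 of 4, Ldha in 4 of 5 and Pgk1 in 2 of 2. Ndrg1 fell in 4 of 7 classes, by -0.50 in the proximal tubule, -0.85 in S3, -0.70 in the connecting tubule and -0.66 in principal cells, while the whole library gave 0.00 ± 0.14. Under DESeq2's scaling Ndrg1 in S3 was -0.14 (adjusted p = 0.620) and in the connecting tubule -0.52 (adjusted p = 0.0930), and Ldha in S3 was -0.67 (adjusted p = 0.0564), so these 3 calls were lost. The connecting tubule value of Ndrg1 was 0.40 (adjusted p = 0.322) under a stricter gate.

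Other genes of the pathway were taken from 3 lists. Of 12 oxygen-sensing genes (HIF subunits, prolyl hydroxylases, VHL and cofactors), 11 were tested in warm against cold bulk, and 1 rose and 0 fell, Hif1a by 0.35 (adjusted p = 0.0146), where 8.68% of all genes were called. In fresh cells 1 of 11 rose, the HIF inhibitor Cited2 by 1.01, and 2 fell, the HIF subunit Epas1 by -0.84 and the coactivator Crebbp by -0.52, where 15.2% of all genes were called. In the female nuclei 4 rose and 6 fell of 11, with Arnt at 2.51 and the hydroxylase Egln2 at -2.06, where 84.8% of all genes were called. In intact kidney 4 of 11 were higher than in suspension, among them Cited2 (0.31) and Epas1 (0.30), where 20% of all genes were called.

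Of 31 other HIF targets, 8 of 30 rose and 1 fell in warm bulk, among them Ddit4, an inhibitor of mTOR (1.37), Angptl4, an inhibitor of lipoprotein lipase (1.37), and the repressor Bhlhe40 (1.32, adjusted p = 3.07e-06). The 9 called of 30 compare with 8.68% of all genes, and the median was 0.03 beside -0.01. In fresh cells 4 of 28 rose, with Angptl4 at 2.09 and Bhlhe40 at 0.88, and 0 fell, where 15.2% of all genes were called. On cryopreservation 3 rose and 9 fell of 27 in cold cells and 8 rose and 7 fell of 27 in warm cells, where 50.5% and 59.7% of all genes were called, so these counts are no result about the list.

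Of 21 glycolysis genes, 5 of 20 rose in warm bulk and 0 fell, among them the aldolase Aldoc (0.74), the phosphofructokinase Pfkp (0.67), the hexokinase Hk1 (0.63) and the pyruvate kinase Pkm (0.61), with a median of 0.02 beside -0.01 and 8.68% called for all genes. In fresh warm cells 9 of 19 rose and 0 fell, with a median of 0.27 beside -0.02 and 15.2% called for all genes, among them Tpi1 (0.66) and Gapdh (0.62). On cryopreservation 9 of 18 fell and 4 rose in cold cells (median -0.53), and 10 of 18 fell and 3 rose in Balb/c (median -0.49), where 50.5% and 57.8% of all genes were called and the medians of all genes were -0.16 and -0.00. In female nuclei 14 of 19 fell and 2 rose (median -3.03 beside 0.10 for all genes, of which 84.8% were called, so the count is no result about the list), with Gapdh at -9.05 (adjusted p = 9.88e-09) and Aldoa at -5.31.

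Over all 14 comparisons of groups, 124 of 126 member values were tested, 26 were called higher and 34 lower. The share of all genes called ranged from 2.11% to 84.8% over these comparisons, so the tallies are a description and no result about the members. Pfkfb3 was higher in 6 and lower in 2, Bnip3 higher in 4 and lower in 7, Ldha higher in 4 and lower in 5, Slc2a1 higher in 4 and lower in 2, and Vegfa and Pgk1 each higher in 3 and lower in 6. Ndrg1 was lower in 5 and higher in 0, Egln3 higher in 2 and Ankrd37 lower in 1. The Egln3 calls include that of the male nuclei, against cells that listed it at 0. In whole libraries the glycolytic members parted on cryopreservation, where Pfkfb3 was called higher and Ldha and Pgk1 lower in all 3 comparisons. The Balb/c Pgk1 groups overlapped, and its call was lost without 3 of 6 libraries. In cold C57BL/6J cells Pfkfb3 was not called in the fit over all groups (adjusted p = 0.115). Within classes of those cells Ldha was called in 0 of 9 and Pgk1 in 0 of 3, and the proximal tubule could not be tested. Pfkfb3 could be tested in 0 classes there, so its rise has no value within a class.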

How the data were processed

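The 39 droplet tables hold UMI counts per gene and barcode, which the authors made with Cell Ranger 2.1.1 on mm10 and then filtered by genes per cell and mitochondrial share. The tables of nuclei include intronic reads, those of cells do not. The 15 bulk libraries are raw counts per gene, made by the authors with STAR 2.6.1a and featureCounts on GRCm38. The strand setting is not given in the sources used here. UMIs were summed per library over nuclear-encoded genes, the droplet comparisons keeping genes listed in every library of the fit. Groups were compared with edgeR 4.0.16 (R 4.3.3), with TMM scaling, filterByExpr and a quasi-likelihood test, Benjamini-Hochberg adjusted over all genes at 0.05, checked on simulated data. Segments were gated with marker lists, by a marker sum over the library mean at a Poisson -log10 p of 3.0 with 2 distinct markers, or for proximal tubule a marker share. Mixed barcodes were left out, no doublet caller was run. A class needed 10 barcodes in a library and 2 libraries a group. All 9 members are named in the report, with values in a comparison for those called or not overlapping, and for list genes up to 4 of the largest calls, a few of which are not reported here. The members and lists were chosen with earlier results of these data known. Alternatives were DESeq2 1.42.0 and its scaling, other filters, folds, gates and fits, and each library left out. Barcode prefixes name the suspension of each storage aliquot, which pairs them, and the correlations of their deviations were 0.235, 0.236 and 0.235 for cold methanol, 0.102, 0.176 and 0.0661 for warm methanol and lower for cryopreservation.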

Additional observations from a re-analysis of the deposited data

Results flagged for a closer look

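The results listed here were picked out because an effect differed between groups in a test of the difference itself.

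Between storage forms, the difference of the warm against cold effect in cryopreserved and fresh C57BL/6J cells was 1.22 ± 0.31 on the log2 scale for Pfkfb3 (adjusted p = 0.0400) and -0.84 ± 0.18 for Ldha (adjusted p = 0.0221). The Pfkfb3 call was lost without 10 of the 12 libraries left out singly, and that of Ldha without 4.

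Between experiments, the cryopreservation effect in cold Balb/c cells lay above that in cold C57BL/6J cells by 0.58 ± 0.14 for Bnip3 (adjusted p = 0.00883) and by 1.096 ± 0.23 for Ndrg1 (adjusted p = 0.00506). Strain, sex, age, storage time, chemistry and spin speed cannot be told apart in this contrast.

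The nuclei effect in the females relative to the males was 2.18 for Pfkfb3 (adjusted p = 0.000127), -2.54 for Ldha (adjusted p = 7.41e-06), 2.22 for Pgk1 (adjusted p = 2.70e-05) and -0.94 for Ndrg1 (adjusted p = 0.0419). The Ndrg1 call was lost without 11 of the 12 libraries left out singly, and under DESeq2's scaling (-0.50, adjusted p = 0.254). The median of all genes in this contrast was -0.75, and 54.6% of all genes were called. Sex, age and chemistry cannot be told apart in this contrast. For Egln3 the fitted value of -8.96 (adjusted p = 0.00813) comes from male cell libraries that list the gene at 0 and has no reading as a fold.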

How the results depend on the processing

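Of 274 alternative counts over 23 results, 219 stayed within 1.5 times the count reported, 47 were lower and 8 higher. Requiring a fold of 2 left 1 member called in bulk warm against cold, 0 in intact kidney, 0 in fresh warm against cold cells, 1 in the cryopreserved and 0 in the methanol pair, 1 in each methanol against fresh comparison, 2 in Balb/c cryopreservation, and 0 in 1x2000g and in sucrose nuclei. In warm against cold methanol cells the count of 1 became 3 with DESeq2, 0 with mitochondrial genes kept and 0 with all groups in 1 fit. Leaving out 1 library gave 0 to 2 in intact kidney, 1 to 3 in fresh warm against cold cells, 0 to 2 after cryopreservation and 0 to 1 after methanol. It gave 2 to 4 for methanol against fresh in warm cells, 2 to 4 for 1x2000g nuclei and 0 to 2 for the warm effect between cryopreserved and fresh. In the segments it gave 0 to 5 pairs for warm against cold, 6 to 19 for methanol and 1 to 3 for cryopreservation. Ndrg1 in male connecting tubule turned to 0.40 with a stricter gate, Bnip3 in the nuclei contrast ranged from -0.15 to 0.60 without single libraries, and Egln3 there became 0.051 with 9 UMIs in place of 0. The causes were not tested. Plain CPM in place of TMM shifted all log2 differences by up to 0.43 in Balb/c cryopreservation and 0.44 in female nuclei.

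Warm and cold libraries share only a number in their barcodes, with correlations of deviations of 0.169, 0.168 and -0.017 in fresh cells. With that number as a replicate block, the cryopreserved count fell from 3 to 1 and Bnip3 in fresh cells had an adjusted p of 0.0560. No paired analysis was possible for bulk and Balb/c because the labels tie no libraries there. In the paired storage comparisons the block changed the calls of Ndrg1 and Vegfa given with methanol and no other. The class tests and the tests of a difference between effects were not fitted with pairing. In droplet libraries the depth limits what can be said of Egln3, Ankrd37 and Pfkfb3, since 9 UMIs would be 3.50 to 11.1 CPM in libraries that list them at 0.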

Other observations

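Over the 18 C57BL/6J droplet libraries, each member above 10 CPM on average was set against 8253 other genes on the log2(CPM + 1) scale. The libraries share protocols, so the Pearson correlations are a description only. Bnip3 followed the mitochondrial genes Sucla2 (0.995), Uqcrfs1 (0.994) and Cycs (0.993) most closely, and Ndrg1 followed Ephx2, Spink1 and Slc26a1 (0.989 each). Slc2a1 lay close to Epcam (0.924) and Scnn1a (0.919), the latter a sodium channel gene of the distal nephron. For Pfkfb3 the closest were Dram1 (0.974), Arid5a (0.973) and Igf1 (0.972), for Ldha Mvd (0.977), for Vegfa Dhx15 (0.926) and for Pgk1 Gm10053 (0.934).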
